A study of Mus musculus with 6 samples.

Results

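Radial glial progenitors (RGPs) of the fetal mouse cortex were followed through 10 marker genes, Pax6, Sox2, Hopx, Vim, Nes, Fabp7, Slc1a3, Ptprz1, Prom1 and Mfge8, looked up by gene name among the 56198 entries of the expression table. All 10 were found, and all 10 were among the 14518 named genes that were tested, those averaging 1 TPM or more over the 6 samples. TPM is the share of transcripts a gene holds, corrected for transcript length and scaled to a fixed total. RNA-Seq was performed on cerebral cortex of C57BL/6 fetuses at E14.5, and the question was how a short maternal anaesthesia leaves the progenitor genes. In the Ctr group (n = 3) the pregnant dams breathed 100% O2 for 6 h. In the Sevo group (n = 3) they breathed 2.5% sevoflurane, an inhaled anaesthetic, carried in 97.5% O2 for 6 h. No allele or other agent distinguished the groups. How many fetuses or litters were pooled into a sample is not stated in the labels or methods, so the p-values measure only the spread between these samples.

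RGPs line the ventricle and act as the stem cells of the developing cortex. Each keeps a long fibre to the brain surface, moves its nucleus up and down within the ventricular zone as it passes through the cell cycle, and divides to renew itself or to give rise to intermediate progenitors and neurons. The 10 markers cover different sides of this cell: regulators of transcription, filaments of the fibre, carriers of lipid and glutamate, surface proteins, and a secreted protein, Mfge8. In tissue RNA such as this, fewer cells of a type and less RNA per cell cannot be told apart.

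The library values were similar between groups. From 14485 to 15193 entries were at 1 TPM or above, the mitochondrial genome supplied 7.89% to 9.13% of the total, and TPM keep no read depth, so no counting error can be given. Entries without a gene name held 3.32% of the total in Ctr replicate 3 and 0.753% to 1.74% in the other samples. Ctr replicate 2 stood apart in genes of tissue next to the cortex. Its 4 choroid plexus genes summed to 756 TPM (the other samples, 1.09 to 22.7), with Folr1 listed at 0 in Sevo replicate 2, and its 7 meningeal and fibroblast genes summed to 105 TPM (the other samples, 5.14 to 24.5). Sevo replicate 2 had the highest sum of 9 ganglionic eminence genes, which mark the ventral telencephalon, at 214 TPM (the other samples, 84.7 to 156). The 7 erythroid genes summed to 3872 TPM in Ctr replicate 2 and 4196 TPM in Sevo replicate 2 (the other samples, 2182 to 3150). The part of these differences in the marker levels was not tested, and a value without one of them is given beside each marker whose log2 fold change it moved by over 1.5 times.

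All 10 markers were detected in every sample. Fabp7 (Ctr mean 1125 TPM) and Vim (876 TPM) were the most abundant, and the other 8 lay between 21.7 TPM (Hopx) and 109 TPM (Pax6) in the Ctr group. The glial filament gene Gfap, which mouse astrocytes switch on later, reached no more than 1.06 TPM in any sample. In the Ctr group the order by mean was Fabp7, Vim, Pax6, Nes, Ptprz1, Mfge8, Sox2, Slc1a3, Prom1 and Hopx, and among neighbours in that order only Nes with Ptprz1 and Mfge8 with Sox2 had overlapping sample values. In the Sevo group Mfge8, at 134 TPM, was the third instead of the sixth, followed by Sox2, Pax6, Ptprz1 and Nes, each with values overlapping those of the one before it, and Nes did not overlap with Slc1a3, the next. The Sevo values of Fabp7 and Vim also overlapped, as did those of Prom1 and Hopx.

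The comparison of the groups gave no common direction. Over all tested genes the median log2 fold change was -0.06, slightly toward lower values in Sevo. On the log2(TPM + 1) scale, 6 of the 10 markers had a lower mean in Sevo and 4 a higher one. None passed an adjusted p of 0.05 (limma, Benjamini-Hochberg over all tested genes), where 0.00689% of all tested genes passed in the lower direction and 0% in the higher. At an unadjusted p under 0.05, 2 markers were lower (Nes and Fabp7), beside 12.8% of all tested genes, and 2 were higher (Hopx and Mfge8), beside 6.56%. The samples of the 2 groups did not overlap for 1 marker in the lower direction, Fabp7, where 17.7% of all tested genes showed this, and for 1 in the higher direction, Mfge8, where 9.43% did.

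That last count depended on single libraries. It was 7 without Sevo replicate 2 (Pax6, Nes, Fabp7 and Prom1 lower, Hopx, Slc1a3 and Mfge8 higher, beside 41.9% of all tested genes), and 4 without Ctr replicate 2 (Fabp7 and Ptprz1 lower, Hopx and Mfge8 higher, beside 35.1%). It was also 4 without Sevo replicate 1 (Vim and Fabp7 lower, Sox2 and Mfge8 higher, beside 39.3%) and 4 after quantile normalization (Vim and Fabp7 lower, Hopx and Mfge8 higher, beside 25.2%). Leaving out a sample can only keep or raise this count, so Fabp7 and Mfge8, separated with all 6 samples, stayed in it necessarily. Both were also in it after quantile normalization.

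**Figure D1:**
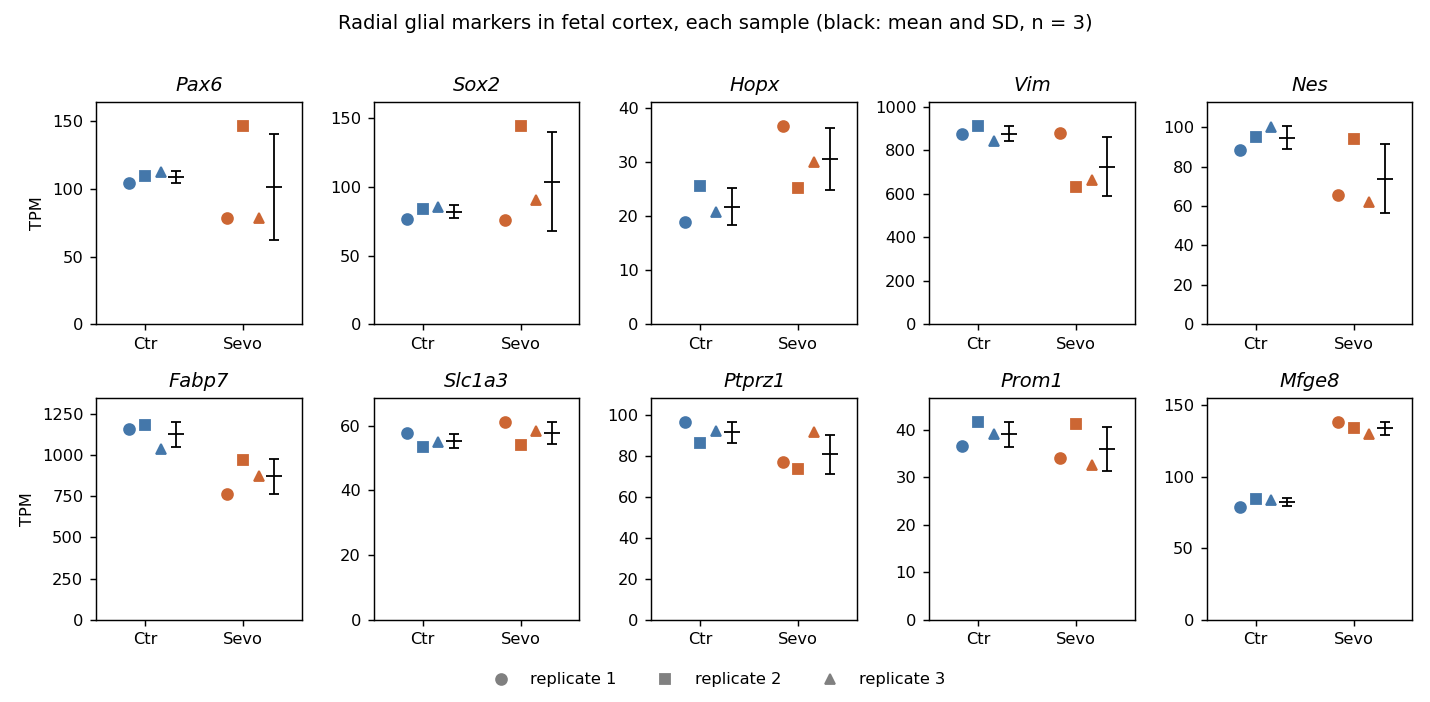
TPM of the 10 radial glial markers in each of the 3 Ctr and 3 Sevo samples, with the mean and SD of each group in black and the symbol giving the replicate number. The Mfge8 samples lie at 78.8 to 84.1 TPM in Ctr and 129 to 138 TPM in Sevo, and Pax6 and Sox2 each have one high Sevo sample, replicate 2.

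Pax6, a homeodomain factor that specifies cortical progenitors, was measured at 105, 109 and 113 TPM in Ctr replicates 1 to 3 and at 78.3, 146 and 78.8 TPM in Sevo replicates 1 to 3. Sevo replicates 1 and 3 lay below every Ctr sample and Sevo replicate 2 above all of them. The means were 109 ± 4.14 and 101 ± 39.2 TPM (SD, n = 3 each), a log2 fold change of -0.17 (95% interval -0.69 to 0.36; limma, adjusted p = 0.725). Sevo replicate 2 decided this value: without it the log2 fold change was -0.46 (limma, adjusted p = 0.0636), and without Sevo replicate 1 or 3 it was -0.02 (limma, adjusted p = 0.976 and 0.97). The log2 SD of Pax6 was 0.05 in Ctr and 0.51 in Sevo, and 91.0% of all tested genes varied less than Pax6 among the Sevo samples.

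Sox2, an HMG-box factor that maintains neural stem cells, had the same high sample. Its TPM were 76.6, 83.9 and 85.4 in Ctr and 76.0, 144 and 90.5 in Sevo. One Sevo sample lay below the Ctr range and the others above it, so the groups overlapped. The means of Sox2 were 82.0 ± 4.73 and 104 ± 36.1 TPM (SD, n = 3 each), with a log2 fold change of 0.28 (95% interval -0.21 to 0.78; limma, adjusted p = 0.503). Without Sevo replicate 2 this was 0.02 (limma, adjusted p = 0.935), and without Sevo replicate 1 it was 0.48 (limma, adjusted p = 0.238).

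Hopx, an atypical homeodomain protein without DNA binding of its own, was the least abundant marker. It was measured at 18.9, 25.6 and 20.7 TPM in Ctr and at 36.7, 25.3 and 29.9 TPM in Sevo. Ctr replicate 2 and Sevo replicate 2 were nearly equal and alone kept the groups from separating. The means were 21.7 ± 3.45 and 30.6 ± 5.75 TPM (SD, n = 3 each), with a log2 fold change of 0.47 (95% interval 0.08 to 0.86; limma, unadjusted p = 0.024, adjusted p = 0.195). Its exons share 412 bases with those of an antisense gene, Hopxos, and since the sources used here give no strand for the counting, reads from that stretch cannot be told apart. Hopxos itself was listed at no more than 0.58 TPM.

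The intermediate filament genes had lower means in Sevo without separating. Vim, which encodes vimentin, was measured at 876, 912 and 840 TPM in Ctr and at 878, 632 and 663 TPM in Sevo. Sevo replicate 1 lay within the Ctr range and the other Sevo samples lay below it. The means of Vim were 876 ± 35.7 and 724.5 ± 134 TPM (SD, n = 3 each; log2 fold change -0.29, 95% interval -0.58 to 0.00; limma, adjusted p = 0.263). Without Sevo replicate 1 the log2 fold change of Vim was -0.43 (limma, adjusted p = 0.0898). Nes, which encodes nestin, was measured at 88.5, 95.2 and 100.3 TPM in Ctr and at 65.5, 93.9 and 62.1 TPM in Sevo. Here it was Sevo replicate 2 that lay within the Ctr range. The means of Nes were 94.7 ± 5.96 and 73.8 ± 17.5 TPM (SD, n = 3 each), with a log2 fold change of -0.38 (95% interval -0.74 to -0.01; limma, unadjusted p = 0.0441, adjusted p = 0.244). Without Sevo replicate 2 it was -0.56 (limma, adjusted p = 0.0636). Sevo replicate 3 was thus low in both filament genes, Sevo replicate 2 in Vim and Sevo replicate 1 in Nes.

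Fabp7, or brain lipid-binding protein, carries fatty acids in radial glia and is a known target of Notch signalling. It was measured at 1158, 1180 and 1037 TPM in Ctr and at 762, 970.5 and 874 TPM in Sevo. Every Sevo sample lay below every Ctr sample, the nearest being Sevo replicate 2 and Ctr replicate 3. The means of Fabp7 were 1125 ± 76.7 and 869 ± 105 TPM (SD, n = 3 each), a ratio of 0.772 and a log2 fold change of -0.38 (95% interval -0.62 to -0.13; limma, unadjusted p = 0.00739, adjusted p = 0.137). The exact permutation test gave a two-sided p of 0.1, the smallest that 3 against 3 samples allow.

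Slc1a3, the glutamate and aspartate transporter GLAST, was nearly level. It was measured at 57.6, 53.4 and 55.0 TPM in Ctr and at 61.1, 54.2 and 58.3 TPM in Sevo, with overlapping groups. The log2 fold change of Slc1a3 was 0.06 (95% interval -0.15 to 0.27; limma, adjusted p = 0.752), on means of 55.3 ± 2.14 and 57.8 ± 3.48 TPM (SD, n = 3 each). It was 0.11 without Sevo replicate 2, 0.02 without Sevo replicate 1 and 0.04 without Ctr replicate 2.

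The surface proteins overlapped between groups as well. Ptprz1, a receptor tyrosine phosphatase that binds pleiotrophin and midkine, was measured at 96.8, 86.4 and 92.2 TPM in Ctr and at 77.1, 73.9 and 91.9 TPM in Sevo. Sevo replicate 3 was within the Ctr range and the other Sevo samples below it. The log2 fold change of Ptprz1 was -0.18 (95% interval -0.43 to 0.06; limma, adjusted p = 0.387), on means of 91.8 ± 5.18 and 81.0 ± 9.60 TPM (SD, n = 3 each), and -0.12 without Sevo replicate 2 or -0.28 without Sevo replicate 3. Prom1, or CD133, a pentaspan protein of apical membrane protrusions, was measured at 36.5, 41.7 and 39.0 TPM in Ctr and at 34.1, 41.2 and 32.6 TPM in Sevo. Again only Sevo replicate 2 was within the Ctr range. The log2 fold change of Prom1 was -0.12 (95% interval -0.40 to 0.16; limma, adjusted p = 0.618), on means of 39.1 ± 2.63 and 36.0 ± 4.57 TPM (SD, n = 3 each). It was -0.22 without Sevo replicate 2, -0.07 without Ctr replicate 2 and -0.06 without Sevo replicate 3. Prom1 shares 424 exon bases with the antisense gene Gm16401, which was listed at no more than 1.16 TPM.

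Mfge8 stood apart from the other 9. It encodes a secreted glycoprotein, lactadherin, that bridges phosphatidylserine on cell surfaces to integrins of neighbouring cells, and its RNA is used as a marker of ventricular radial glia. Mfge8 was measured at 78.8, 84.1 and 83.8 TPM in Ctr and at 138, 134 and 129 TPM in Sevo. All Sevo samples lay above all Ctr samples, and the gap between the groups was wider than the range within either. The means were 82.2 ± 2.99 and 134 ± 4.51 TPM (SD, n = 3 each), a ratio of 1.63 and a log2 fold change of 0.70 (95% interval 0.51 to 0.88).

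By its unadjusted p of 2.68e-05, Mfge8 was second among all tested genes in the limma fit, with 1 gene below it. Its adjusted p of 0.0746 was above 0.05 all the same, a value it shared with others (104 genes in all), and the exact permutation test gave the smallest two-sided p possible here, 0.1. The spread of Mfge8 on the log2 scale was 0.05 within each group, against a median over all tested genes of 0.12 in Ctr and 0.22 in Sevo. Across the 17 alternative settings the log2 fold change of Mfge8 ranged from 0.67 to 0.79 and its adjusted p from 0.0564 to 0.34.

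Mfge8 is also made outside the radial glia, by vascular and phagocytic cells in particular. The summed levels of those cells' markers overlapped between the groups when all 6 samples were used. The 7 endothelial markers summed to between 54.5 and 112 TPM in Ctr and between 57.0 and 72.1 TPM in Sevo. The 5 mural markers summed to between 20.8 and 30.3 TPM in Ctr and between 19.4 and 28.5 TPM in Sevo, and the 8 microglial and macrophage markers to between 30.0 and 47.8 TPM in Ctr and between 33.0 and 33.5 TPM in Sevo. The highest endothelial and microglial sums in Ctr were those of Ctr replicate 2. Without it the microglial sums were 30.0 and 31.96 TPM in Ctr, below the Sevo range, the endothelial sums still overlapped, and the median log2 fold change was 0.17 for the endothelial and 0.10 for the microglial genes (-0.07 and -0.02 with all samples). Among the mural markers, whose median was 0.18, the most abundant, Rgs5, had a log2 fold change of -0.24 (SE 0.22). Pdgfrb, a receptor listed here as a mural marker, was measured at 3.92, 5.68 and 4.24 TPM in Ctr and at 5.66, 7.61 and 6.31 TPM in Sevo (log2 fold change 0.43, SE 0.19; limma, adjusted p = 0.259). Cspg4 had a log2 fold change of 0.41 (SE 0.22; limma, adjusted p = 0.35). Without Ctr replicate 2 the Pdgfrb groups separated, higher in Sevo, where 35.1% of all tested genes separated in either direction. The mural sums still overlapped without it, and the mural median was 0.16. The part of these cells in the Mfge8 level was not tested. None of these markers passed an adjusted p of 0.05 in limma. At an unadjusted p under 0.05 the number was 0 as well, beside 12.8% of all tested genes lower and 6.56% higher. With all 6 samples P2ry12, a microglial receptor, was the one gene of these lists with separated groups, at 3.56 to 4.22 TPM in Ctr and 2.09 to 3.54 TPM in Sevo. Over all tested genes 17.7% separated in that direction and 9.43% in the higher one. Of the integrin genes whose products bind Mfge8 protein, Itgav had a log2 fold change of 0.04 (limma, adjusted p = 0.927) and Itgb5 of 0.28 (limma, adjusted p = 0.416), and Itgb3 stayed at or below 0.27 TPM.

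**Figure D2:**
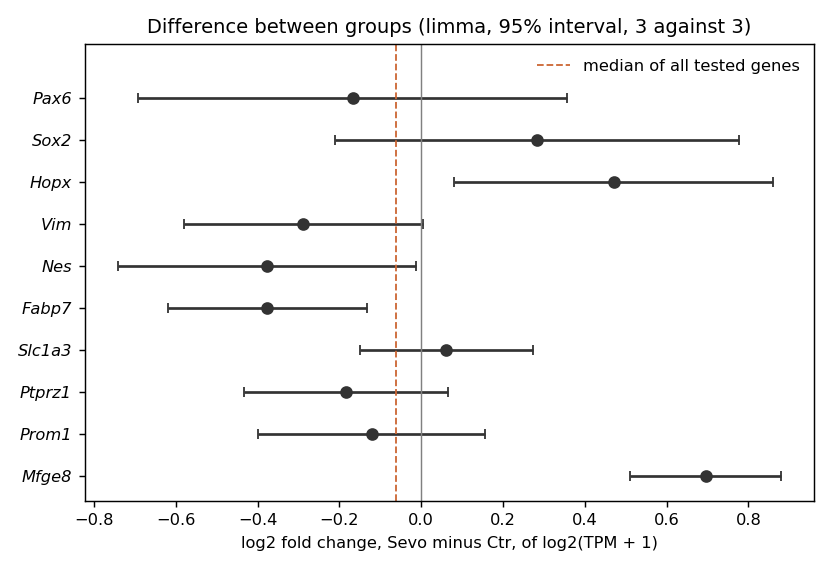
Log2 fold change (Sevo minus Ctr, on log2(TPM + 1)) of the 10 radial glial markers with the 95% interval from limma. The interval of Mfge8 runs from 0.51 to 0.88, those of Fabp7 and Nes lie below 0 and that of Hopx above it, and the dashed line gives the median of all tested genes, -0.06.

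The promoters of 2 markers are shown because Fabp7 and Mfge8 were the markers whose groups separated, in opposite directions. The letters searched were TGGGAA, the core bound by RBPJ, the DNA-binding partner of Notch, on both strands, in the 250 bases before each RefSeq start site. The search found it in 7094 of 32851 promoters (21.6%) and in 3 of the 13 promoters of the 10 markers, those being one each of Fabp7, Mfge8 and Prom1. Both stretches are printed 5′ to 3′ on the strand of the gene, from RefSeq on GRCm38.p6, and capitals mark the match. It reads TTCCCA on the strand of the gene, so TGGGAA lies on the opposite strand. That of Fabp7 (chr10:57784673-57784880, plus strand) leaves out the bases nearest the start site that annotated exons cover. That of Mfge8 (chr7:79149061-79149310, minus strand) ends at the base before the start site.
Fabp7: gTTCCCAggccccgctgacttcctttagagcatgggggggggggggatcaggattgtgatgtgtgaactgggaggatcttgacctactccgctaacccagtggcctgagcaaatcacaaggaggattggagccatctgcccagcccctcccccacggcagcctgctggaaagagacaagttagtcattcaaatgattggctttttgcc
Mfge8: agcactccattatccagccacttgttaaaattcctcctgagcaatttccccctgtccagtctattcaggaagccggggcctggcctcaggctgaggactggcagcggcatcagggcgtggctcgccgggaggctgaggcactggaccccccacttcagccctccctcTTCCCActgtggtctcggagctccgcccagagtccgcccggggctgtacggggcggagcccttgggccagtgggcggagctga
In Fabp7 the match lies 249 to 244 bases before the RefSeq start and in Mfge8 it lies 83 to 78 bases before it. A match of 6 letters is a description of the sequence and does not show that a factor binds there. The part of these matches in the marker levels was not tested.

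To see whether the markers moved together, each sample was set against the Ctr mean. Of the 9 markers other than Mfge8, 6 were below the Ctr mean in Sevo replicate 1, 5 in Sevo replicate 2 and 5 in Sevo replicate 3. The mean of the 9 differences was -0.13, 0.06 and -0.16 on the log2(TPM + 1) scale in Sevo replicates 1 to 3, and -0.04, 0.04 and 0.00 in Ctr replicates 1 to 3. The averages of the Sevo samples were therefore not all on one side of the Ctr samples. The median log2 fold change of the 9 was -0.17, beside -0.06 for all tested genes. It was -0.06 without Sevo replicate 3 and -0.09 without Sevo replicate 1. Median centring, which moves all genes alike, put the 9 at -0.07 and all tested genes at 0.04.

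Summed as TPM, the 9 gave 2513, 2587 and 2383 in Ctr and 2069, 2182 and 1982 in Sevo. Every Sevo sum lay below every Ctr sum, and Fabp7 and Vim together made up most of each. The level of Mfge8 relative to the mean of the other 9 was -0.51, -0.50 and -0.46 in Ctr and 0.39, 0.15 and 0.31 in Sevo, on the log2(TPM + 1) scale. Mfge8 was thus below the average marker in each Ctr sample and above it in each Sevo sample.

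**Figure D3:**
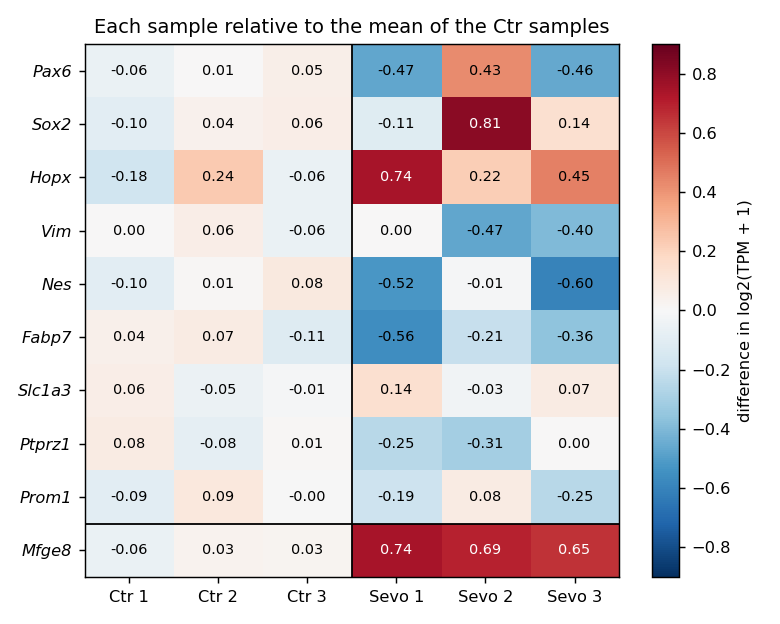
Difference in log2(TPM + 1) between each sample and the mean of the Ctr samples for the 10 radial glial markers, printed in each cell, with red above and blue below the Ctr mean. Sevo replicate 2 is high in Pax6 (0.43) and Sox2 (0.81) and low in Vim (-0.47), while Mfge8, in the bottom row, is high in all 3 Sevo samples.

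The pairwise correlations over the 6 samples gave no common movement either. They are a description, since the samples fall into 2 groups and share their normalization. Among the 36 pairs of the 9 markers, Pearson's r ranged from -0.90 to 0.91 with a median of -0.01, and 18 pairs were positive (50%). Among all pairs of tested genes the median was 0.02, and 51.3% were positive. The highest of the 36 pairs, picked after their values were seen, were Nes with Prom1 (0.91), Pax6 with Prom1 (0.88) and Pax6 with Nes (0.86). Slc1a3 went the other way, at -0.90 with Prom1, -0.83 with Nes and -0.82 with Pax6, and Sox2 with Vim was at -0.81. Of the 9 pairs with Mfge8, 3 were positive, the highest with Hopx (0.81) and the lowest with Fabp7 (-0.87).

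The high Pax6 and Sox2 of Sevo replicate 2 went with high values of some other progenitor regulators in the same library, named here after their values were seen. Sox1, a close relative of Sox2, was measured at 14.7, 17.5 and 18.9 TPM in Ctr and at 14.5, 37.3 and 23.1 TPM in Sevo, and Sox3, the remaining SOXB1 member, at 48.7, 56.4 and 62.2 TPM in Ctr and at 50.5, 87.2 and 50.4 TPM in Sevo. Nr2e1, a nuclear receptor of neural stem cells, was measured at 44.1, 48.0 and 54.9 TPM in Ctr and at 25.8, 63.8 and 29.2 TPM in Sevo. These 3 genes were highest in Sevo replicate 2. So were Lhx2 (423 TPM), Tfap2c (46.7 TPM) and, narrowly, Notch1 (33.6 TPM, with Ctr replicate 3 at 33.3 TPM), whereas some other regulators were not. Hes1 was at its lowest there (22.1 TPM), and Sox9 (33.6 TPM), Emx2 (44.0 TPM) and Id4 (79.9 TPM) were each exceeded by Ctr replicate 3 (34.1, 48.7 and 84.97 TPM). The ganglionic eminence genes Dlx2 (41.9 TPM, the other samples 10.2 to 17.1) and Gad1 (27.1 TPM, the other samples 8.76 to 16.7) were also highest there, and Sevo replicate 1 was lowest in both. Of the 8 tested genes of that list none passed an adjusted p of 0.05 in limma. None passed an unadjusted p under 0.05 either, beside 12.8% of all tested genes lower and 6.56% higher. The median log2 fold change of the list was 0.13, or -0.17 without Sevo replicate 2. Whether ventral tissue in that library has a part in its Pax6 and Sox2 values was not tested.

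**Figure D4:**
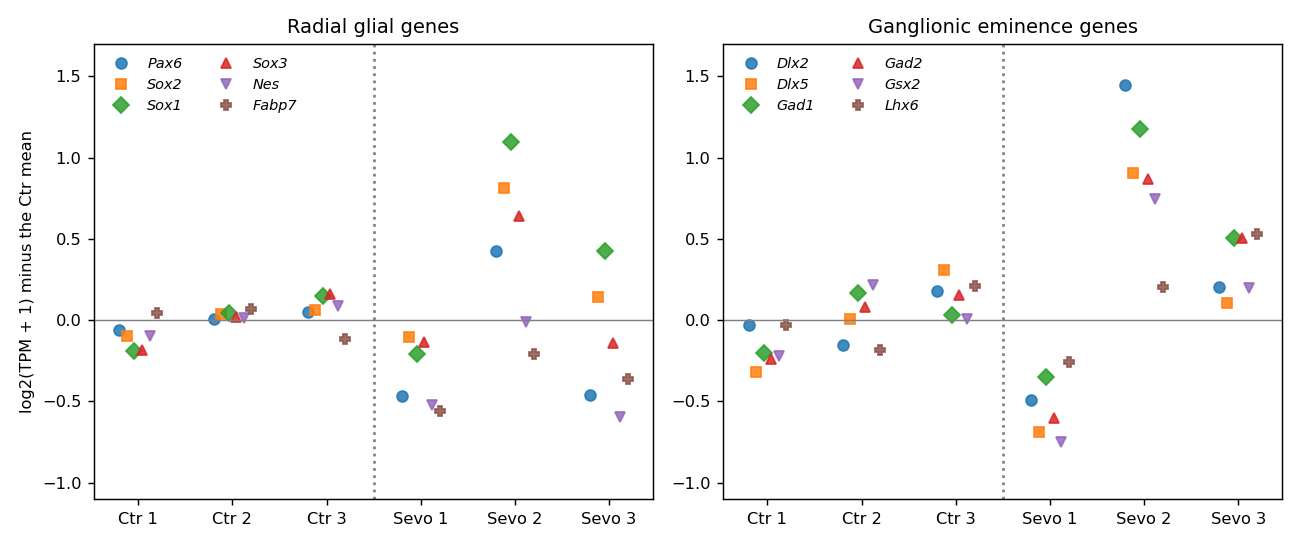
Log2(TPM + 1) of radial glial genes (left) and ganglionic eminence genes (right) in each sample, minus the mean of the Ctr samples, with a dotted line between the groups. In Sevo replicate 2 Sox2 is at 0.81 and Pax6 at 0.43, and the ganglionic eminence genes are above 0 in the same library and below 0 in Sevo replicate 1.

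Genes related to the markers by family or binding were read from the same fit. Of 12, 10 were tested, 3 with a lower and 7 with a higher mean in Sevo, none past an adjusted p of 0.05 in limma. At an unadjusted p under 0.05, 0 were lower and 1 higher, beside 12.8% and 6.56% of all tested genes. The groups separated for 1 in the lower and 1 in the higher direction, beside 17.7% and 9.43%. Fabp5, the second brain fatty acid carrier of this family, was measured at 610, 614 and 564 TPM in Ctr and at 557, 505 and 525 TPM in Sevo, so that its groups separated in the direction of Fabp7 (log2 fold change -0.17, SE 0.08; limma, adjusted p = 0.272), though not after median centring or quantile normalization. Mdk, which encodes midkine, a ligand of the Ptprz1 receptor, was measured at 487, 529 and 472 TPM in Ctr and at 628, 562.5 and 533 TPM in Sevo. Its groups separated in the other direction (log2 fold change 0.21, SE 0.09; limma, adjusted p = 0.251). Ptn, which encodes pleiotrophin, the second ligand, had a log2 fold change of 0.00 (SE 0.10; limma, adjusted p = 0.986).

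A second list held 18 other radial glial genes, all of them tested. Of these, 17 had a lower mean in Sevo and 1, Notch1, a higher one, with a median log2 fold change of -0.18 beside -0.06 for all tested genes. After median centring 13 were lower (median -0.08, beside 0.04 for all tested genes) and after quantile normalization 15 (median -0.09, beside -0.01). None passed an adjusted p of 0.05 in limma, and at an unadjusted p under 0.05 2 were lower, beside the 12.8% of all tested genes, and 0 higher. Dbi, the most abundant of them, encodes an acyl-CoA binding protein and had a log2 fold change of -0.02 (SE 0.09; limma, adjusted p = 0.944). Hes1, a Notch effector that represses neurogenic factors, had the lowest value of the list. It was measured at 44.6, 38.4 and 42.4 TPM in Ctr and at 41.9, 22.1 and 22.8 TPM in Sevo, with Sevo replicate 1 inside the Ctr range (log2 fold change -0.57, SE 0.23; limma, adjusted p = 0.231). Hes5, the other main Notch effector of these cells, was at -0.06 (SE 0.14; limma, adjusted p = 0.856).

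In 3 genes of the second list the groups separated, all lower in Sevo, a share near the 17.7% of all tested genes. This number was 9 without Sevo replicate 2 (26.7% of all tested genes were separated and lower) and 6 without Ctr replicate 2 (21.4%). It was 1 after median centring (9.59%) and 1 after quantile normalization (12.8%). Veph1, a radial glial PH-domain protein, was measured at 4.54, 3.83 and 4.47 TPM in Ctr and at 2.34, 2.82 and 3.09 TPM in Sevo (log2 fold change -0.50, SE 0.17; limma, adjusted p = 0.187). Ednrb, an endothelin receptor, had a log2 fold change of -0.28 (SE 0.14; limma, adjusted p = 0.314), and Ddah1, an enzyme of methylarginine breakdown, one of -0.16 (SE 0.10; limma, adjusted p = 0.407). The samples nearest each other in Ednrb were Ctr replicate 3 at 20.3 TPM and Sevo replicate 3 at 20.2 TPM, and in Ddah1 Ctr replicate 2 at 79.2 TPM and Sevo replicate 2 at 78.5 TPM.

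**Figure D5:**
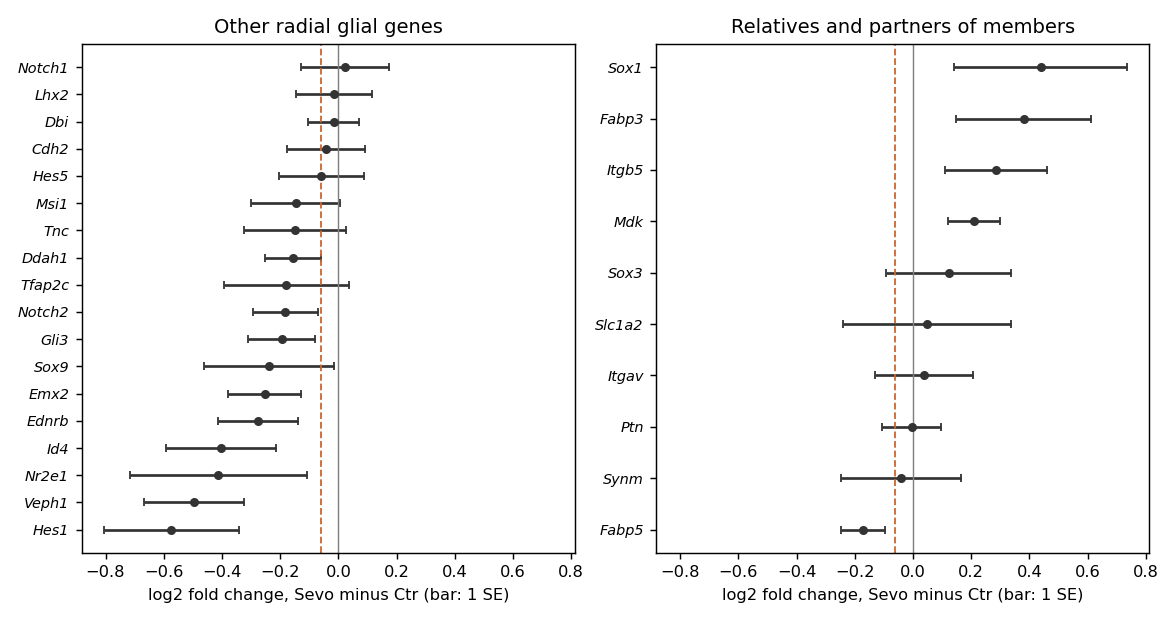
Log2 fold change (Sevo minus Ctr) of the 18 other radial glial genes (left) and of the 10 tested relatives and binding partners of the markers (right), with bars of 1 SE from limma and the median of all tested genes as a dashed line. Most values on the left lie below 0, from Hes1 at -0.57 to Notch1 at 0.02, and those on the right run from Fabp5 at -0.17 to Sox1 at 0.44.

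The descendants of the RGPs and the dividing cells gave a background for these levels. Of 8 intermediate progenitor genes, 7 had a lower mean in Sevo, with a median log2 fold change of -0.39 beside -0.06 for all tested genes. Eomes, or Tbr2, the factor that defines these cells, was measured at 170.3, 168 and 176 TPM in Ctr and at 153, 133.5 and 111.5 TPM in Sevo (log2 fold change -0.38, SE 0.12; limma, adjusted p = 0.163). Every Sevo sample of Eomes lay below every Ctr sample, as was so for 3 of the 8 genes (17.7% of all tested genes), among them Elavl4 (log2 fold change -0.52; limma, adjusted p = 0.128). After median centring this held for 2 of them (9.59%). Neurog2, the most abundant of the list, overlapped, with Sevo replicate 1 at 254 TPM above every Ctr sample. Of 10 mitotic genes, 9 had a lower mean in Sevo and 6 separated in that direction (17.7% of all tested genes did), with a median of -0.29. The separated ones were 10 without Sevo replicate 2 (beside 26.7%), 2 after median centring (9.59%) and 2 after quantile normalization (12.8%). Ube2c, which encodes a ubiquitin-conjugating enzyme of mitotic exit, was measured at 200.5, 189 and 194 TPM in Ctr and at 137, 145 and 134 TPM in Sevo (log2 fold change -0.48, SE 0.08; limma, adjusted p = 0.0746). None of the intermediate progenitor or mitotic genes passed an adjusted p of 0.05 in limma, with 3 and 6 lower, beside 12.8% of all tested genes, and 0 higher at an unadjusted p under 0.05. The 10 neuronal genes had a median of -0.10 with overlapping sums (3211 to 3658 TPM in Ctr and 3182 to 3698 TPM in Sevo), of which the tubulin gene Tubb3 was the largest part. Tbr1, a factor of deep-layer neurons, was the one neuronal gene with separated groups (17.7% of all tested genes separated lower). It was measured at 213.5, 166 and 203 TPM in Ctr and at 129, 139 and 145 TPM in Sevo (log2 fold change -0.49, SE 0.11; limma, adjusted p = 0.108).

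Among the genes most like Mfge8 over the 6 samples, out of 10039 protein-coding genes averaging 5 TPM or more, were Ext2 (r = 0.996) and Fhod3 (r = 0.988). They were chosen for that likeness, so their direction is not a separate result. Fhod3, a formin that builds actin filaments, was measured at 20.5, 20.7 and 19.96 TPM in Ctr and at 31.2, 32.7 and 30.1 TPM in Sevo. Ext2, a heparan sulfate polymerase, was measured at 35.0, 36.2 and 35.9 TPM in Ctr and at 45.3, 44.4 and 42.7 TPM in Sevo. A further count gives the scale: 64 genes had an r above 0.95 with Mfge8 and 48 with Fabp7. The most like Fabp7 were Sdc1 (r = 0.998), Zfp407 (r = 0.991) and Vwa8 (r = 0.984), of which Sdc1, a membrane heparan sulfate proteoglycan, was measured at 20.5, 20.6 and 17.0 TPM in Ctr and at 10.3, 15.4 and 12.4 TPM in Sevo.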

How the data were processed

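The authors deposited one table of TPM per gene for the 6 samples, TPM being scaled to the same total in each sample, and rounded. The program behind these values was not given in the sources used here. Processing notes from the submitters list Bowtie 0.12.2, edgeR, mm8 and mm10 with no role for each, and the study's methods name DESeq2, which needs counts that TPM no longer hold. Samples were grouped by their deposited labels. Of the 56198 entries, 662 had no gene name, 26584 named genes were at 0 in every sample, and 27 names that a spreadsheet had turned into dates were restored from their identifiers.

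The fit used limma 3.58.1 under R 4.3.3 (eBayes with trend, two-sided, Benjamini-Hochberg) on log2(TPM + 1), for named genes averaging 1 TPM or more. The pseudocount of 1 understates the change of low genes. Exact permutation tests used all 20 assignments of 3 and 3 samples. The fit was tested on simulated data first. Gene positions and exon overlaps came from GENCODE M21 on GRCm38, which matched 99.8% of named genes and need not be the annotation behind the TPM. Promoters were RefSeq sequences of GRCm38.p6. Other steps ran in Python 3.11.15 with numpy 2.4.6, pandas 2.3.3, matplotlib 3.10.9 and SciPy 1.17.1.

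The markers and lists were chosen with earlier results of these data known. By rule, the text could name all 10 markers, of each list the most abundant gene, genes at 0 and up to 4 genes with separated groups, and the 3 protein-coding genes most correlated with Mfge8 and with Fabp7. Not every gene the rule took is named, and 1 of them is not reported here. Sox1, Sox3, Nr2e1, Dlx2, Gad1, Hes1, Hes5, Notch1, Gfap, Itgav, Itgb3, Itgb5, Ptn, Pdgfrb, Cspg4, Sox9, Emx2, Id4, Lhx2 and Tfap2c were named after their values were seen. Alternatives were quantile normalization, median centring, TPM rescaled after mitochondrial and haemoglobin genes were removed, pseudocounts of 0.01 and 0.1, a filter at 5 TPM and none, sample weights, a robust prior, a prior without trend, a replicate block, leaving out each sample, and thresholds of an adjusted p of 0.01 and an unadjusted p of 0.05.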

Additional observations from a re-analysis of the deposited data

How the results depend on the processing

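No marker changed the sign of its log2 fold change and none passed an adjusted p of 0.05 under any of the 17 alternative fits. The number of markers with separated groups (2) was 4 after quantile normalization and 2 to 7 with one sample left out, which can only keep or raise it. The median log2 fold change of the 9 markers other than Mfge8 (-0.17) was -0.0703 after median centring and -0.198 to -0.056 with one sample left out. Over all genes 1 passed an adjusted p of 0.05, 2 with sample weights and 1 to 9 with one sample left out (9 without Sevo replicate 1, 3 without Sevo replicate 2). At an unadjusted p under 0.05, 2812 genes and 4 markers passed. Those genes were 953 higher and 1859 lower in the main setting, 1689 and 892 after median centring, and 1306 and 1240 after quantile normalization, so the share of lower genes depends on the scaling. Same-numbered samples did not deviate together (correlations of -0.02, 0.02 and 0.01). The labels do not say whether the numbers pair the samples, and with 3 samples per group these correlations cannot exclude it. With a replicate block 1 gene and 0 markers passed, as without it, and the adjusted p of Mfge8 was 0.133. TPM keep no depth, and with 3 samples per group no exact permutation test can go below 0.1.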
